A study of Mus musculus with 16 samples.

Results

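The genes described here are 10 members of the Notch pathway, chosen by symbol from the 47729 genes counted in each library: the receptors Notch1, Notch2, Notch3 and Notch4, the ligands Dll1, Dll4, Jag1 and Jag2, and the target genes Hes1 and Hey1. They were measured by RNA sequencing in 4 cell types isolated from mouse livers that had received no toxin, namely endothelial cells (ECs), hepatic stellate cells (HSCs, SC in the labels), Kupffer cells and hepatocytes. Each cell type was taken from mice labelled KO and from mice labelled WT, with 2 libraries for each of the 8 groups (n = 2), 16 libraries in all. The KO label stands for Cdh5-CreERT2 mice, in which Cre can be activated in ECs, with loxP sites around exon 7 of Zeb2, a transcription factor of the zinc finger E-box binding family, on an R26R CAG-boosted eGFP reporter background. The WT label stands for littermates without Cre. Mice of both labels received 2 mg tamoxifen per day on 5 consecutive days, so that tamoxifen is common to all groups. The methods give 8-week-old males and, for mRNA, 2 weeks after the last injection, unless stated otherwise. Cre is driven by an endothelial promoter, so that HSCs, Kupffer cells and hepatocytes labelled KO come from livers whose ECs were the target. Hepatocytes were separated by centrifugation, and the other cells were sorted by flow cytometry. HSCs were taken by their UV autofluorescence, and among UV- cells the antigen F4/80 marked Kupffer cells and Pan-endo marked ECs.

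Notch receptors are single-pass membrane proteins that are activated by Delta-like (Dll) or Jagged (Jag) ligands on a neighbouring cell. Ligand binding allows the receptor to be cut by the protease Adam10 and then by gamma-secretase, and the released intracellular part enters the nucleus, binds the DNA-binding protein Rbpj and switches on targets such as the Hes and Hey repressors. In blood vessels, Dll4 and Notch1 are known for restraining sprouting and for arterial identity, Notch4 is known as an endothelial receptor and Notch3 as a receptor of mural cells. In the liver, Jag1 and Notch2 are known for their part in forming bile ducts.

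Sequences upstream of the start of transcription are shown for 3 genes that stood high in ECs (Dll4, Dll1 and Notch4) and for Notch3, which stood high in HSCs, so that the regions in front of genes with opposite patterns can be set side by side. They are the 250 bases before an annotated start, from RefSeq on GRCm38.p6, written 5′ to 3′ in the direction of the gene. Capitals mark a match to either of 2 motifs, searched on both strands: TGGGAA, the core of the Rbpj site, and CACCTG, an E-box that Zeb proteins bind, which was added to the search later than the first.
Dll4, chr2:119325534-119325783, + strand: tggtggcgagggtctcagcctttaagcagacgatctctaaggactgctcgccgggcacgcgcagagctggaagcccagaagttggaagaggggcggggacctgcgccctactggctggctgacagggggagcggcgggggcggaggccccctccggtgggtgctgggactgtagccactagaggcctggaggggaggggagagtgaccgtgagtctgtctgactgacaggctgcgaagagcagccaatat
Dll1, the start further upstream, chr17:15376933-15377182, - strand: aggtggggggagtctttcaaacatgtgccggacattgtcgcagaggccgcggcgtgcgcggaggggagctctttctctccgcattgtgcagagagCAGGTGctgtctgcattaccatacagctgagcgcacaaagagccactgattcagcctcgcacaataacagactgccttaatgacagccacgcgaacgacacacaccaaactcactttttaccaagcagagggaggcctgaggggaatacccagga
Notch4, chr17:34564045-34564294, + strand: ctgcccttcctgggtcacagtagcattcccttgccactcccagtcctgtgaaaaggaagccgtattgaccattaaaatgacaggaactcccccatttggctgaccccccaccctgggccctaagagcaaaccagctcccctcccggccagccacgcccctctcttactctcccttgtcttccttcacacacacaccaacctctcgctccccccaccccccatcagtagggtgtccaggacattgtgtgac
Notch3, chr17:32166891-32167140, - strand: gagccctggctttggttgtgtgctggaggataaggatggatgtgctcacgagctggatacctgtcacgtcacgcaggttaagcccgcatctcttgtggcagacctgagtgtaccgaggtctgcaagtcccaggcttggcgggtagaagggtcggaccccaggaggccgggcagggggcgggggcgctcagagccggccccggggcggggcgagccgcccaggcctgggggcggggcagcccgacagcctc
The RefSeq table held 9 promoters for 8 of the 10 members, each with 250 bases before and 50 after the start. The targets Hes1 and Hey1 had no entry, so that only promoters of receptors and ligands were searched. None of the 9 held TGGGAA, which occurs in 25.6% of the 32851 promoters of the table. One of the 9 held CACCTG, 155 bases before the upstream start of Dll1, on the strand opposite to the gene (printed as CAGGTG), against 20.2% of all promoters. A match describes these letters alone, and its absence says nothing on binding elsewhere in a gene.

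On GRCm38, Notch1 lies on chromosome 2 from 26457903 to 26516663 (reverse strand), Dll4 on chromosome 2 from 119325784 to 119335962 (forward) and Jag1 on chromosome 2 from 137081456 to 137116644 (reverse). Notch3, Notch4 and Dll1 lie on chromosome 17, from 32120820 to 32166852 (reverse), from 34564268 to 34588503 (forward) and from 15367354 to 15376872 (reverse). Notch2 and Hey1 lie on chromosome 3, from 98013527 to 98150361 (forward) and from 8663359 to 8667256 (reverse), Hes1 on chromosome 16 from 30064384 to 30067796 (forward) and Jag2 on chromosome 12 from 112907819 to 112929776 (reverse). Exons of 5 members share bases with another annotated gene, between 5.02% of the exon bases of Notch2 (with Gm42820, same strand) and 20.6% of those of Dll1 (with A930024N18Rik, opposite strand). For Notch1 (0610009E02Rik and Gm13568), Notch3 (Gm17276) and Dll4 (Gm14207) the other gene also lies on the opposite strand. Whether counting used the strand is not given in the sources used here, so that reads over these shared bases may be missing from the members or may come from the other gene.

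Gene counts summed to 12872706 in the smallest and 15690506 in the largest library, and 3 counts, taken as the smallest level this depth can show, correspond to 0.191 to 0.233 CPM (counts divided by the gene total of their own library and scaled to a common total). Zeb2 itself had 106 and 106 CPM in the EC libraries labelled WT and 199 and 130 in those labelled KO. Zeb2 was therefore not lower under the KO label in ECs (log2 fold change 0.62, standard error (SE) of 0.24, adjusted p = 0.303), while the gene-wide count includes exons outside exon 7 and checks the deletion only in part. The paper reports efficient deletion of Zeb2 in ECs at the mRNA level, and recombination in most ECs by the eGFP reporter. Those measures were not repeated here, so that directions between genotypes refer to the labels. The summed 8 markers of each cell type were highest in their own libraries. EC markers reached 1.27 to 3.54% of their mean EC level in HSC libraries, 3.91 to 6.95% in Kupffer libraries and 0.40 to 0.62% in hepatocytes. Cdh5 itself, whose promoter drives Cre, stood apart from the other EC markers: it had 147 to 172 CPM in Kupffer libraries and 165 to 234 in ECs, a mean of 84.2% of the EC level where the median marker had 4.39%. Hepatocyte transcripts differed between the labels: 857 hepatocyte-enriched genes (at least 10 CPM in WT hepatocytes and 8 times the level of WT Kupffer cells, which limits the Kupffer share) had a median of 11.1 and 22.9% of their level in WT hepatocytes in the EC WT libraries (34 and 38), against 3.34 and 2.28% in the EC KO libraries (6 and 46). The same share was 3.91 and 7.94% in HSC WT, 0.915 and 1.39% in HSC KO, 4.73 and 8.57% in Kupffer WT and 9.72 and 11.4% in Kupffer KO libraries. None of the 10 members is on that list of hepatocyte-enriched genes.

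The first question was in which of the 4 cell types each receptor, ligand and target is found. ECs carried mainly Notch1 and Notch4 with Dll4 and Dll1, and HSC libraries held Notch1, Notch2 and Notch3 with Dll4 and Jag1. Kupffer cells carried mainly Notch2, and hepatocytes had the lowest summed level of receptors and of ligands. The part of other cells among the sorted ones in these levels was not tested. Cell types were compared pairwise in one fit of all 16 libraries, averaged over both labels, by the quasi-likelihood test of edgeR with TMM factors (a scaling to the bulk of the genes). The threshold was a p-value, adjusted after Benjamini and Hochberg, under 0.05, and libraries that may stem from one liver were treated as independent. Of the 60 pairs of a member with 2 cell types, 37 passed. For ECs against HSCs 6 of the 10 members passed, with 26.0% of all 17214 genes tested. For ECs against Kupffer cells 6 passed (32.0% of all genes), for ECs against hepatocytes 7 (58.7%), for HSCs against Kupffer cells 6 (42.9%), for HSCs against hepatocytes 7 (58.4%) and, with Kupffer cells in their place, 5 (55.6%). Members thus passed at shares above that of all genes in the comparisons among ECs, HSCs and Kupffer cells, and near it in those with hepatocytes. Comparisons depend on the scaling. With TMM the median log2 difference over all genes tested was 0.02, 0.13 and 0.54 for ECs against HSCs, Kupffer cells and hepatocytes, and with library totals alone it was 0.27, 0.45 and 1.85. The corresponding medians were 0.60 and 1.67 when HSCs, and 0.24 and 1.24 when Kupffer cells, were set against hepatocytes, and 0.09 and 0.16 for HSCs against Kupffer cells, and log2 differences below are relative to the TMM scaling.

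**Figure D1:**
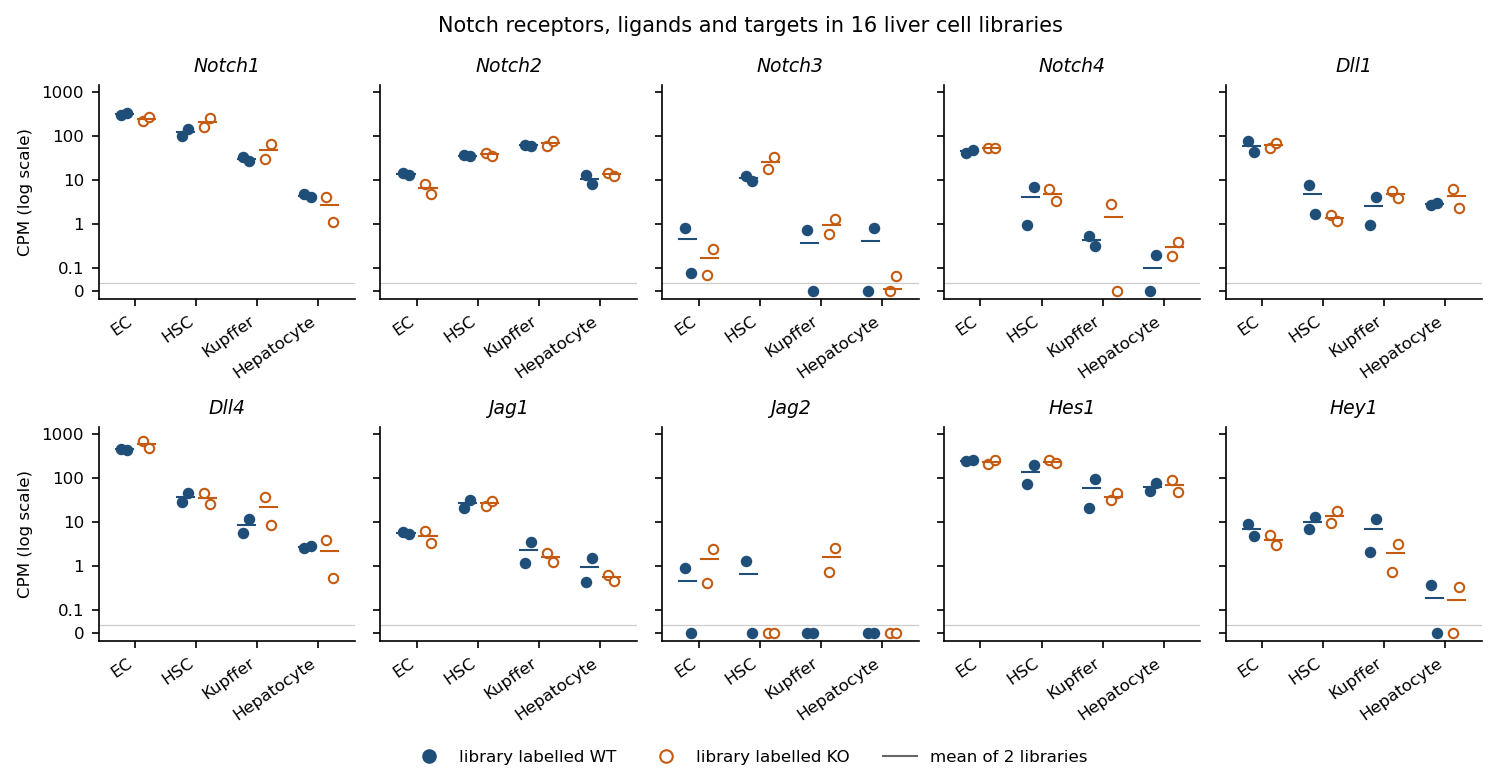
CPM on a log axis (libraries without a count at 0) of the 10 members in ECs, HSCs, Kupffer cells and hepatocytes, with filled points for WT and open points for KO libraries and a line at the mean of 2. Dll4, Dll1 and Notch4 stand highest in ECs (Dll4 437 to 685 CPM), Jag1 and Notch3 in HSCs and Notch2 in Kupffer cells (59.6 to 77.1 CPM).

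Notch1, the most abundant receptor per kb of exon in ECs, had 309 and 333 CPM in EC WT and 224 and 267 in EC KO libraries. In HSCs the WT libraries had 101 and 147 CPM and the KO libraries 164 and 266. Kupffer cells had 33.5 and 27.2 CPM in WT and 29.6 and 67.0 in KO, and hepatocytes 4.78 and 4.16 in WT and 4.25 and 1.15 in KO. The order was therefore ECs, HSCs, Kupffer cells and hepatocytes, with the 4-library ranges of ECs and HSCs overlapping. ECs and HSCs did not differ beyond the spread between libraries (log2 difference 0.53, SE 0.35, adjusted p = 0.294), while HSCs exceeded Kupffer cells by 2.02 (SE 0.36, adjusted p = 0.000847) and Kupffer cells exceeded hepatocytes by 2.43 (SE 0.38, adjusted p = 0.000161).

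Notch2, the receptor linked to bile duct formation, showed another order. Kupffer cells had 64.1 and 59.6 CPM in WT and 60.1 and 77.1 in KO, above every HSC library (37.3 and 34.9 in WT, 41.3 and 35.9 in KO). Hepatocytes had 13.4 and 8.25 CPM in WT and 14.7 and 12.5 in KO. ECs had 14.4 and 13.4 in WT and 8.43 and 4.80 in KO. HSCs were below Kupffer cells (log2 difference -0.88, SE 0.21, adjusted p = 0.00467). With the WT libraries alone this difference was -0.87 and did not pass (adjusted p = 0.0837). HSCs and hepatocytes differed by 0.50 (SE 0.21, adjusted p = 0.0537), just short of the threshold, and with any 1 of their 8 libraries left out the adjusted p was 0.00759 to 0.0458. It also passed with DESeq2, RLE factors and both changes of the filter (0.54 to 0.77), and with library totals alone it was 1.62 (adjusted p = 5.32e-05, range over all alternatives 5.32e-05 to 0.113). The difference between hepatocytes and ECs depended on the scaling as well. ECs against hepatocytes stood at -1.71 after TMM (SE 0.21, adjusted p = 2.48e-05), and at -0.34 without passing with library totals alone, where the CPM of both cell types overlap.

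Notch4 and Notch3 were the receptors with the narrowest distribution. Notch4 had 41.7 and 49.7 CPM in EC WT and 53.5 and 53.8 in EC KO, against 0.96 and 7.17 in HSC WT and 6.29 and 3.32 in HSC KO. In Kupffer cells and hepatocytes it stayed at or below 2.90 CPM, with no count in 1 Kupffer KO and 1 hepatocyte WT library. ECs exceeded HSCs 9.50-fold (log2 difference 3.25, SE 0.86, adjusted p = 0.0156), and this did not pass without HSC KO library 20 or HSC WT library 32 (adjusted p = 0.0584 and 0.0590, range over all alternatives 3.72e-11 to 0.0751). HSCs, Kupffer cells and hepatocytes were next in this order, with neighbours that did not differ at the threshold (adjusted p = 0.0503 and 0.443). HSCs exceeded hepatocytes by 3.49 on the log2 scale (SE 1.07, adjusted p = 0.0141). HSCs against Kupffer cells (log2 difference 2.38) did pass with DESeq2, with library totals alone, without a filter, without hepatocyte-enriched genes and without HSC WT library 32 (adjusted p = 4.05e-06 to 0.0476), and rose to 6.05 without Kupffer KO library 27 (adjusted p = 0.00169, range over all alternatives 4.05e-06 to 0.270). Expressed as a share of the EC mean, Notch4 in HSC libraries (1.93 to 14.4%) lay mostly above the summed EC markers (1.27 to 3.54%), and in Kupffer libraries (0 to 5.84%) mostly below them (3.91 to 6.95%). How far ECs among the sorted cells carry these levels was not tested.

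Notch3 stood highest in the HSC libraries, with 12.5 and 9.53 CPM in WT and 17.8 and 34.2 in KO. No library of the other 3 cell types had more than 1.29 CPM, and 3 of them had no count. Summed markers of smooth muscle and mural cells likewise had 132 to 409 CPM in HSC libraries and at most 56.5 elsewhere. Their part in the level of Notch3 was not tested. HSCs exceeded Kupffer cells by 4.72 (SE 1.12, adjusted p = 0.00514) and hepatocytes by 5.95 (SE 1.30, adjusted p = 0.00190) on the log2 scale, and ECs against HSCs stood at -6.07 (SE 1.21, adjusted p = 0.00295). With the WT libraries alone the differences kept their direction (4.70, 3.64 and -4.79) but did not pass. No difference among ECs, Kupffer cells and hepatocytes passed.

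To compare levels between receptors, CPM was divided by the length of each gene's exons in kb. In ECs, Notch1 made up 73.2 ± 3.98% (SD, n = 4) and Notch4 23.2 ± 4.85% of the summed receptors. The 4 libraries of a cell type are 2 WT and 2 KO here and below, so that SDs include differences between the labels. Notch1 had 76.7 and 75.9% in EC WT and 68.0 and 72.4% in EC KO libraries. Notch4 had 18.3 and 20.0% in EC WT and 28.6 and 25.8% in EC KO libraries. HSCs held 64.3 ± 5.08% Notch1, 20.6 ± 6.46% Notch2 and 12.0 ± 3.42% Notch3. In Kupffer cells Notch2 came first with 68.2 ± 6.14%, followed by Notch1 with 29.6 ± 6.48%, and in hepatocytes Notch2 made up 78.4 ± 10.2%. Summed, the receptors of ECs had 27.1 ± 3.28 CPM per kb, those of HSCs 18.2 ± 6.16, those of Kupffer cells 9.01 ± 2.05 and those of hepatocytes 1.44 ± 0.234. The leading receptor was the same in all 4 libraries of each cell type.

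**Figure D2:**
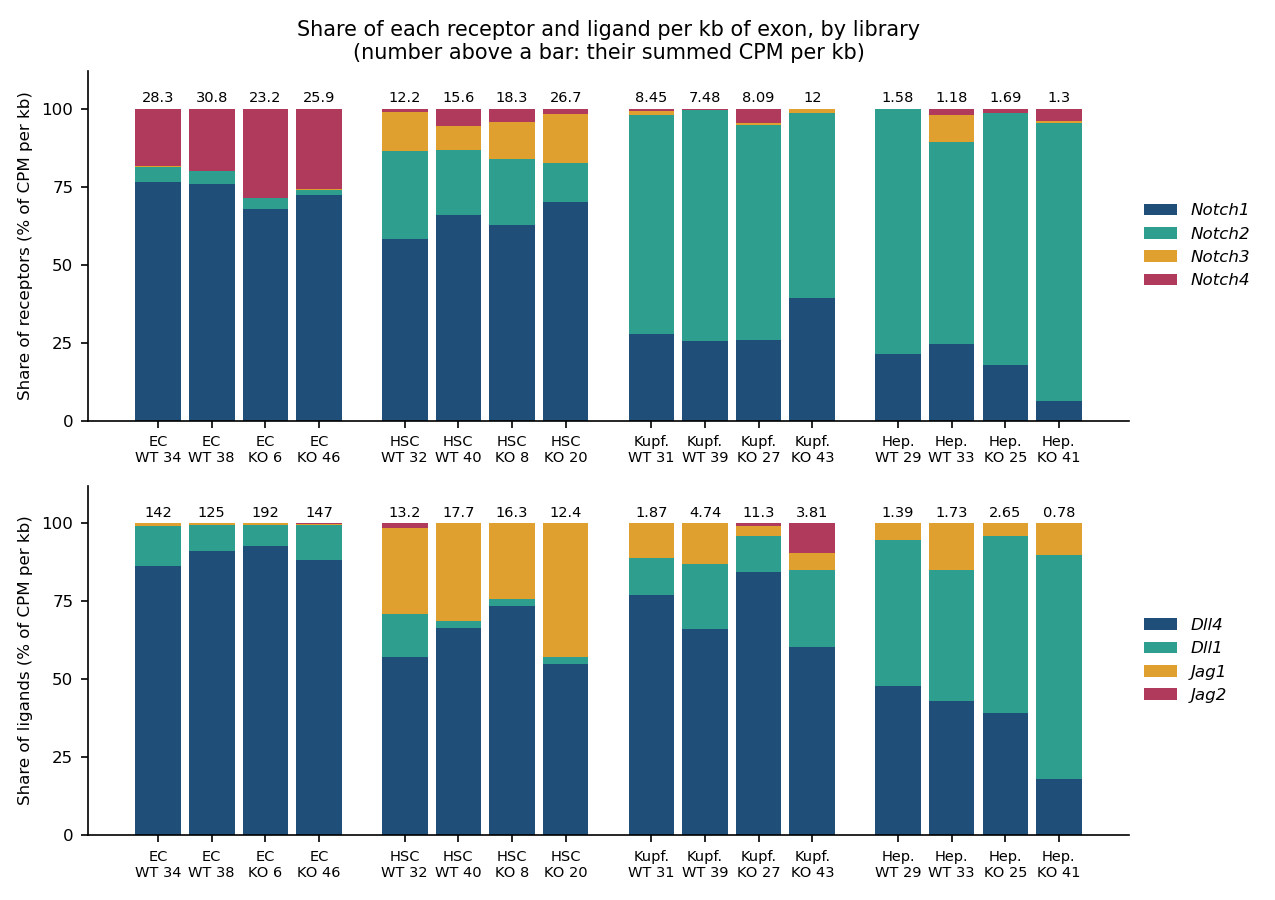
Share of each receptor (top) and ligand (bottom) in percent of their summed CPM per kb of exon, 1 bar per library with its label and number, the sum written above. Notch1 leads in ECs and HSCs and Notch2 in Kupffer cells and hepatocytes, and Dll4 makes up 86.2 to 92.6% of the ligands in ECs.

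Dll4, the ligand of sprouting and arterial ECs, was the most abundant ligand per kb of exon in ECs. ECs had 470.2 and 437 CPM in WT and 685 and 499 in KO. HSCs followed with 29.1 and 45.4 in WT and 46.0 and 26.1 in KO, then Kupffer cells with 5.57 and 12.1 in WT and 36.5 and 8.87 in KO, and hepatocytes had 0.54 to 3.997 CPM. The lowest EC library thus stood above every other library. ECs exceeded HSCs 12.0-fold (log2 difference 3.58, SE 0.53, adjusted p = 0.000348), Kupffer cells 29.8-fold (4.90, SE 0.56, adjusted p = 3.97e-05) and hepatocytes 81.4-fold (6.35, SE 0.61, adjusted p = 2.69e-06). Relative to the EC mean, Dll4 reached 4.99 to 8.81% in HSCs, above the summed EC markers there, and 1.06 to 6.99% in Kupffer cells, where EC markers stood at 3.91 to 6.95%. Of the EC markers taken apart, Tek was highest in HSCs, with a mean of 5.95% of its EC level. How far ECs among the sorted cells carry the Dll4 of HSC libraries was not tested. HSCs against Kupffer cells passed narrowly (1.31, SE 0.49, adjusted p = 0.0471), and not without HSC library 8, 20, 32 or 40 or Kupffer library 31, 39 or 43 (adjusted p = 0.0506 to 0.142). Kupffer cells against hepatocytes (1.45, SE 0.52, adjusted p = 0.0306) did not pass without hepatocyte library 29 or Kupffer library 27 or 39 (adjusted p = 0.0501 to 0.0876). With the WT libraries alone this difference was 0.68 and did not pass (adjusted p = 0.188). The narrow pass of HSCs against Kupffer cells was also lost with RLE factors (1.23, adjusted p = 0.0555) and with library totals alone (1.37, adjusted p = 0.0519).

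Dll1, a second Delta-like ligand, was likewise an EC gene, with 77.9 and 43.5 CPM in WT and 55.01 and 69.0 in KO, while the 12 other libraries had between 0.94 and 7.75 CPM. ECs exceeded HSCs by 4.34 (SE 0.57, adjusted p = 0.000139), Kupffer cells by 3.86 (SE 0.55, adjusted p = 0.000200) and hepatocytes by 2.76 (SE 0.53, adjusted p = 0.000713) on the log2 scale. Among the other 3 cell types, HSCs against hepatocytes passed (-1.58, SE 0.53, adjusted p = 0.0217), but not with library totals alone (-0.47), in WT libraries alone (-0.35), or without HSC library 8, 20 or 40 or hepatocyte library 25, 29 or 33 (adjusted p = 0.0731 to 0.190).

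Jag1, the ligand known from bile duct formation, was highest in HSCs, with 21.3 and 32.3 CPM in WT and 23.0 and 31.1 in KO. ECs had 5.86 and 5.36 in WT and 6.27 and 3.34 in KO, Kupffer cells 1.21 to 3.59 and hepatocytes 0.45 to 1.5 CPM. Every HSC library stood above every other library. ECs against HSCs stood at -2.63 (SE 0.46, adjusted p = 0.00117), and HSCs exceeded Kupffer cells by 3.72 (SE 0.48, adjusted p = 8.23e-05) and hepatocytes by 4.05 (SE 0.50, adjusted p = 2.47e-05) on the log2 scale. With the WT libraries alone ECs against HSCs stood at -2.52 and did not pass (adjusted p = 0.0604). ECs exceeded hepatocytes by 1.42 (SE 0.47, adjusted p = 0.0212), although this did not pass in WT libraries alone (1.16, adjusted p = 0.220). Neighbours below HSCs did not differ (ECs against Kupffer cells 1.09, adjusted p = 0.0838, and Kupffer cells against hepatocytes 0.33, adjusted p = 0.598), although ECs passed against Kupffer cells without Kupffer WT library 39 (adjusted p = 0.0470, range over all alternatives 0.0325 to 0.413). Jag2 was near the limit of this depth in all cell types. It had a count in 3 EC libraries (0.91, 0.42 and 2.43 CPM), 1 HSC library (1.34) and 2 Kupffer libraries (0.73 and 2.57), and 0 counts in all 4 hepatocyte libraries, which allows up to 0.191 to 0.205 CPM there.

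The ligands of ECs summed to 151 ± 28.8 CPM per kb of exon (SD, n = 4), those of HSCs to 14.9 ± 2.53, those of Kupffer cells to 5.42 ± 4.07 and those of hepatocytes to 1.64 ± 0.779. Dll4 made up 89.5 ± 2.87% of the ligands in ECs and Dll1 9.81 ± 2.81%. HSC libraries held 62.9 ± 8.64% Dll4, with the part of ECs in it not tested, and 31.5 ± 8.20% Jag1. Jag1 thus had a larger share in HSCs than in any EC library, where it made up at most 0.739%.

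**Figure D3:**
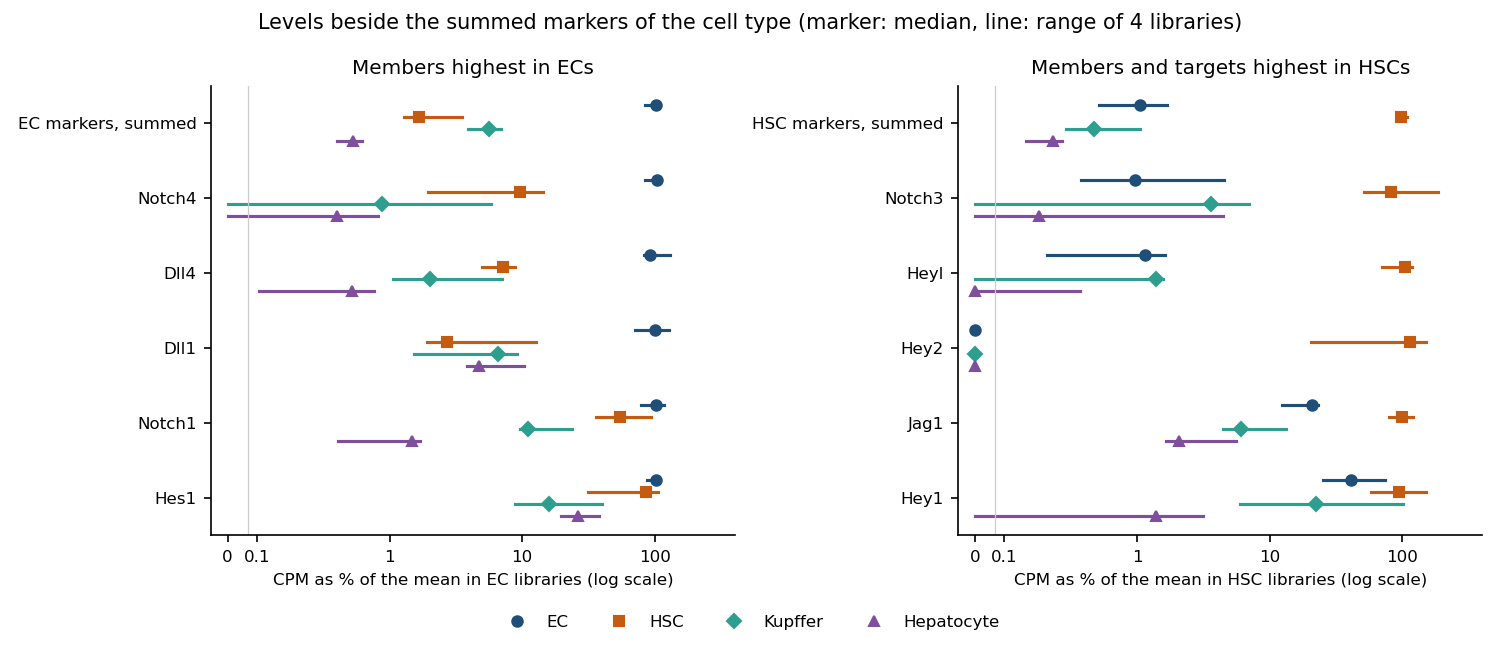
CPM of members and targets in percent of their mean in ECs (left) or HSCs (right), on a log axis with 0 at the edge, beside the summed markers of that cell type; symbols are medians and lines ranges of 4 libraries. In HSCs, Dll4 reached 4.99 to 8.81% of the EC mean where EC markers reached 1.27 to 3.54%.

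Hes1, a target of the pathway in many cells, was the most evenly distributed member. ECs had 241 and 254 CPM in WT and 213 and 261 in KO, and HSCs 75.3 and 197 in WT and 257 and 218 in KO. Hepatocytes had 50.9 and 76.6 in WT and 92.5 and 47.6 in KO, and Kupffer cells 21.3 and 96.5 in WT and 31.5 and 45.1 in KO. ECs and HSCs overlapped (log2 difference 0.19, SE 0.40, adjusted p = 0.785), and so did hepatocytes and Kupffer cells in CPM. ECs exceeded Kupffer cells by 2.07 (SE 0.42, adjusted p = 0.00242) and HSCs did so by 1.88 (SE 0.41, adjusted p = 0.00325). With the WT libraries alone neither passed (1.77 and 1.18, adjusted p = 0.110 and 0.244, the highest of all alternatives). Comparisons of Hes1 with hepatocytes depended on the scaling and, for ECs, on the filter. After TMM, ECs and HSCs did not differ from hepatocytes (0.49 and 0.30) and Kupffer cells were lower (-1.58, adjusted p = 0.00597). After TMM without a filter on low counts, ECs exceeded hepatocytes by 0.72 (adjusted p = 0.0212). With library totals alone ECs were 1.86 and HSCs 1.43 higher than hepatocytes, past the threshold, and Kupffer cells (-0.49) were not past it. In WT libraries alone, Kupffer cells against hepatocytes stood at -1.18 and did not pass (adjusted p = 0.185). The Kupffer difference also did not pass without hepatocyte library 25 or 33 or Kupffer library 27 (adjusted p = 0.0594 to 0.0629).

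Hey1, a target known from blood vessels, was low throughout. HSCs had 7.04 and 13.2 CPM in WT and 9.75 and 18.2 in KO, ECs 8.93 and 4.89 in WT and 5.01 and 3.06 in KO, and Kupffer cells 2.15 and 12.1 in WT and 0.73 and 3.25 in KO. No hepatocyte library exceeded 0.38 CPM. HSCs, ECs and Kupffer cells overlapped and did not differ at the threshold (adjusted p = 0.223 for HSCs against ECs and 0.894 for ECs against Kupffer cells). All 3 exceeded hepatocytes, Kupffer cells by 3.26 (SE 0.97, adjusted p = 0.0129), although not without Kupffer KO library 43 (adjusted p = 0.0519).

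The second question was whether the members differed between the labels KO and WT within a cell type. No member passed the threshold in any of the 4 cell types. In ECs 0 of the 9 members tested passed with edgeR, where 2.08% of the 14631 genes tested did, and 1 had an unadjusted p-value under 0.05. In HSCs 0 of 9 passed (0.0% of all genes) with 1 at an unadjusted p-value under 0.05, in Kupffer cells 0 of 9 (0.0% of all genes) with 1, and in hepatocytes 0 of 5 (0.0% of all genes) with 0. Such an unadjusted p-value was found for 15.0% of all genes of the EC fit, 8.75% of the HSC fit, 5.09% of the Kupffer fit and 7.11% of the hepatocyte fit, so that 1 of 9 members is near that background. DESeq2 also called 0 members in each cell type. The 305 genes called in ECs, 288 of them lower under the KO label, became 0 of 13799 when hepatocyte-enriched genes were left out, 3 without EC KO library 46, 58 without EC KO library 6 and 688 without EC WT library 34. Over the members tested, the median log2 fold change of ECs was -0.06, that of HSCs 0.22, that of Kupffer cells 0.62 and that of hepatocytes 0.17, beside -0.01, 0.02, -0.02 and -0.02 over all genes. The Kupffer median of 0.62 is the estimate of Notch1 (adjusted p = 0.935 with edgeR), which was -0.16 without Kupffer KO library 43. Jag2, without a count in Kupffer WT libraries, lies above this median, and its exact value cannot move it. Fewer cells of a kind and less RNA per cell cannot be told apart in such bulk libraries.

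**Figure D4:**
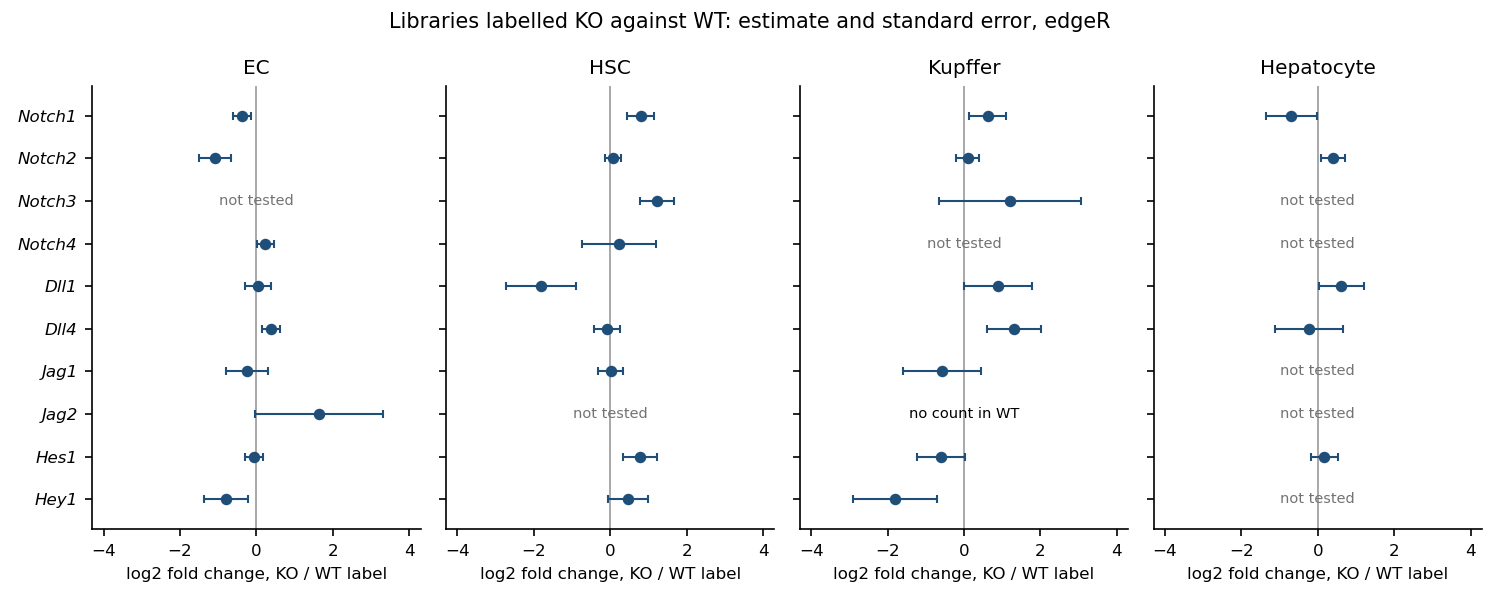
Log2 fold change of libraries labelled KO against WT for the 10 members in each cell type, with SE from edgeR (n = 2 per label). Estimates in ECs lie between -1.09 for Notch2 and 1.64 for Jag2, and none of the members tested passed the threshold.

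Among the EC receptors, Notch2 had the largest estimate, with 14.4 and 13.4 CPM in WT and 8.43 and 4.80 in KO. Both KO libraries were below both WT libraries (log2 fold change -1.09, SE 0.42, adjusted p = 0.300), and this was the member with an unadjusted p-value under 0.05. Hepatocyte transcripts moved along with it: at the hepatocyte WT mean of 10.8 CPM, the hepatocyte shares given above correspond to 1.204 and 2.47 CPM of Notch2 in the WT and 0.36 and 0.25 in the KO libraries. The part of hepatocyte transcripts in the value of Notch2 was not tested. Notch1 was lower in both KO libraries (log2 fold change -0.38, SE 0.23, adjusted p = 0.510), and Notch4 (0.23, SE 0.22, adjusted p = 0.685) and Dll4 (0.38, SE 0.24, adjusted p = 0.534) were higher in both. Dll1 (0.03), Hes1 (-0.06), Jag1 (-0.24) and Hey1 (-0.79) overlapped between the labels. In CPM, 4 of the 9 members tested did not overlap between the labels, and 48.2% of all genes did not either. Genes of arterial and continuous ECs (Bmx, Gkn3, Cd34, Vwf and Sema3g), summed, stood at 79.2 and 83.7 CPM in EC WT and at 196 and 239 in EC KO, with Gkn3 and Sema3g at 0 in WT, and their part in the values of Notch4 and Dll4 was not tested.

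In HSCs, Notch3 had 12.5 and 9.53 CPM in WT and 17.8 and 34.2 in KO. Both KO libraries were above both WT libraries (log2 fold change 1.23, SE 0.45, adjusted p = 0.526), again the member with an unadjusted p-value under 0.05. The 5 markers of smooth muscle and mural cells, summed, stood at 132 to 143 CPM in WT and 207 to 409 in KO, and their part in the value of Notch3 was not tested. Notch1 (0.79, SE 0.35, adjusted p = 0.604) and Hes1 (0.79, SE 0.44, adjusted p = 0.715) were also higher in both KO libraries, and Dll1 was lower in both (-1.81, SE 0.92, adjusted p = 0.669), with 7.75 and 1.73 CPM in WT and 1.59 and 1.18 in KO. These 4 of 9 members compare with 39.8% of all genes whose labels did not overlap in HSCs. The gap for Dll1 rests on WT library 32, without which the estimate lay at -0.34, the smallest of the range from leaving out each HSC library in turn (-2.53 to -0.34). Notch2 (0.07), Dll4 (-0.08) and Jag1 (0.01) were alike in mean and overlapped.

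Kupffer cells gave the widest estimates, with a biological coefficient of variation of 51.0% against 36.8 to 42.7% in the other cell types. Dll4 had 5.57 and 12.1 CPM in WT and 36.5 and 8.87 in KO, so that the labels overlapped and the log2 fold change of 1.32 (SE 0.71, adjusted p = 0.933) came from library 27, without which it was 0.02. Hey1 (-1.80, SE 1.10, adjusted p = 0.933), Hes1 (-0.60) and Notch1 (0.62) overlapped as well. Jag2 had 0 counts in either WT library and 11 and 38 counts in the KO libraries, at least 8.19-fold higher over a floor of 3 counts per library (adjusted p = 0.933 with edgeR). It was the 1 member of the 9 tested whose labels did not overlap, beside 36.6% of all genes. In hepatocytes, Notch1 (-0.69), Notch2 (0.40), Dll1 (0.61), Dll4 (-0.23) and Hes1 (0.17) were tested, all with adjusted p of 0.783 or more and overlapping labels, where 39.5% of all genes did not overlap.

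An interaction term over the 16 libraries tested whether KO against WT came out differently in one cell type than in another. No member passed with edgeR in any of the 6 pairs of cell types, and 1, 1, 1, 2, 1 and 0 members had an unadjusted p-value under 0.05 in the pairs in the order given next, beside 4.85, 13.96, 9.12, 11.7, 7.16 and 8.18% of all genes. The share of all 17214 genes that passed was 0.0349% for ECs minus HSCs, 2.07% for ECs minus Kupffer cells, 0.0697% for ECs minus hepatocytes, 0.593% for HSCs minus Kupffer cells, 0.0755% for HSCs minus hepatocytes and 0.0116% for Kupffer cells minus hepatocytes. The 357 genes called for ECs minus Kupffer cells became 12 without hepatocyte-enriched genes and ranged from 1 (without EC KO library 46) to 569 (without Kupffer KO library 27) when a library was left out, with 8 without EC WT library 38, 51 without EC KO library 6, 29 without Kupffer WT library 31, 92 without Kupffer KO library 43 and 178 without Kupffer WT library 39. The lowest p-value belonged to Notch2, whose label difference in ECs lay below that in hepatocytes (log2 -1.54, SE 0.42, adjusted p = 0.152). With DESeq2 it passed (adjusted p = 0.0122, range over all alternatives 0.0122 to 0.673). Against HSCs (-1.15, SE 0.42) and Kupffer cells (-1.20, SE 0.42) the same EC difference had adjusted p-values of 0.895 and 0.209. These comparisons share the EC libraries and are not independent of each other. Dll1 in HSCs minus Kupffer cells (-2.73, SE 1.05, adjusted p = 0.326) and in HSCs minus hepatocytes (-2.46, SE 1.04, adjusted p = 0.640) also had unadjusted p-values under 0.05, as did Jag2 in HSCs minus Kupffer cells, where 5 of the 8 libraries had no count.

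Other genes of the pathway were read from a list of 57 that process the ligands, receptors and signal. Of these, 51 were tested across cell types. Among them 19 differed between ECs and HSCs (10 higher in ECs), 18 between ECs and Kupffer cells (9 higher) and 24 between HSCs and Kupffer cells (14 higher in HSCs), and against hepatocytes 38, 36 and 33 differed for ECs, HSCs and Kupffer cells. The shares of all genes given above for these pairs were 26.0, 32.0 and 42.9%, and 58.7, 58.4 and 55.6% against hepatocytes. The pathway list thus lay near the background for ECs and for HSCs against Kupffer cells. It lay above the background for ECs against HSCs and for each of the other cell types against hepatocytes. No test of the list as a set was run. The 6 genes not tested were Dll3, Dlk1, Hes2, Hes3, Hes5 and Hes7, none of which exceeded 0.659 CPM (Hes2) in any library. Hes5 had 1 count in 1 Kupffer library and none elsewhere. Among the further ligands Dlk2, an atypical ligand, passed in no pair and had 1.37 CPM at most.

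Ligands are taken up into the signalling cell by the ubiquitin ligases Mib1, Mib2, Neurl1a and Neurl1b, and the receptor is modified by the fringe enzymes Lfng, Mfng and Rfng, which tune its response to Delta-like against Jagged ligands. Mfng was the fringe gene of ECs, with 73.5 and 48.5 CPM in WT and 147 and 134 in KO, against 2.83 to 5.57 in HSCs, 12.5 to 25.9 in Kupffer cells and at most 1.15 in hepatocytes. ECs exceeded HSCs 18.4-fold (log2 difference 4.2, SE 0.54, adjusted p = 0.000128) and Kupffer cells 3.88-fold (1.96, SE 0.49, adjusted p = 0.00897). Rfng was highest in HSCs (49.1 to 56.3 CPM against 17.9 to 35.5 elsewhere), and Lfng, named here after its values were seen, was highest in Kupffer cells (38.3 ± 18.5 CPM, SD, n = 4) ahead of ECs (12.5 ± 2.11). The fringe genes thus had their highest CPM in 3 different cell types, although Rfng in HSCs and hepatocytes did not differ after TMM (-0.04, adjusted p = 0.876). Of the ubiquitin ligases, Mib2 was highest per kb in WT ECs, and its 43.7 to 61.0 CPM in ECs did not differ from HSCs or Kupffer cells (adjusted p = 0.358 and 0.627). Neurl1b had 6.02 to 16.5 CPM in HSCs and no count in hepatocytes. In ECs it exceeded the mean of the other 3 cell types by 2.19 on the log2 scale, the highest such difference of these ligases. That mean includes the hepatocytes without a count. Neurl1a had at most 6.00 CPM.

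Genes for cutting the receptor were broadly present. Adam10, the protease of the first cut after ligand binding, had 126 ± 43.6 CPM in Kupffer cells, 73.6 ± 7.45 in ECs, 35.7 ± 10.3 in HSCs and 5.79 ± 2.32 in hepatocytes (SD, n = 4), and all 6 pairs passed. Ncstn, a subunit of gamma-secretase, was the highest of this group per kb in WT ECs, with 172 to 325 CPM over ECs, HSCs and Kupffer cells and no difference among them. Aph1c, another subunit, was a Kupffer gene at a low level (7.98 to 12.0 CPM). The nuclear partner Rbpj was sparse, with 4.59 to 7.92 CPM in ECs, 6.15 to 9.41 in HSCs, 2.62 to 7.99 in Kupffer cells and 0.13 to 1.27 in hepatocytes. ECs, HSCs and Kupffer cells did not differ in Rbpj, and all 3 exceeded hepatocytes by 1.88 to 2.66 on the log2 scale. Maml2, a coactivator that binds the Notch and Rbpj complex, showed the same split more sharply: 54.4 to 76.7 CPM in ECs, 34.1 to 36.8 in HSCs and 27.4 to 41.2 in Kupffer cells, against 0.06 to 0.20 in hepatocytes. ECs exceeded hepatocytes in Maml2 by 7.45 (SE 0.29, adjusted p = 1.29e-08), well beyond the shift over all genes. Snw1, which also binds the complex, did not differ in any pair. Of the corepressors at Rbpj, Ctbp1 had the highest level per kb in WT ECs and Spen the highest difference of ECs against the rest, and neither differed between ECs and HSCs or Kupffer cells, while Cir1 was lower in Kupffer cells than in ECs and HSCs.

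**Figure D5:**
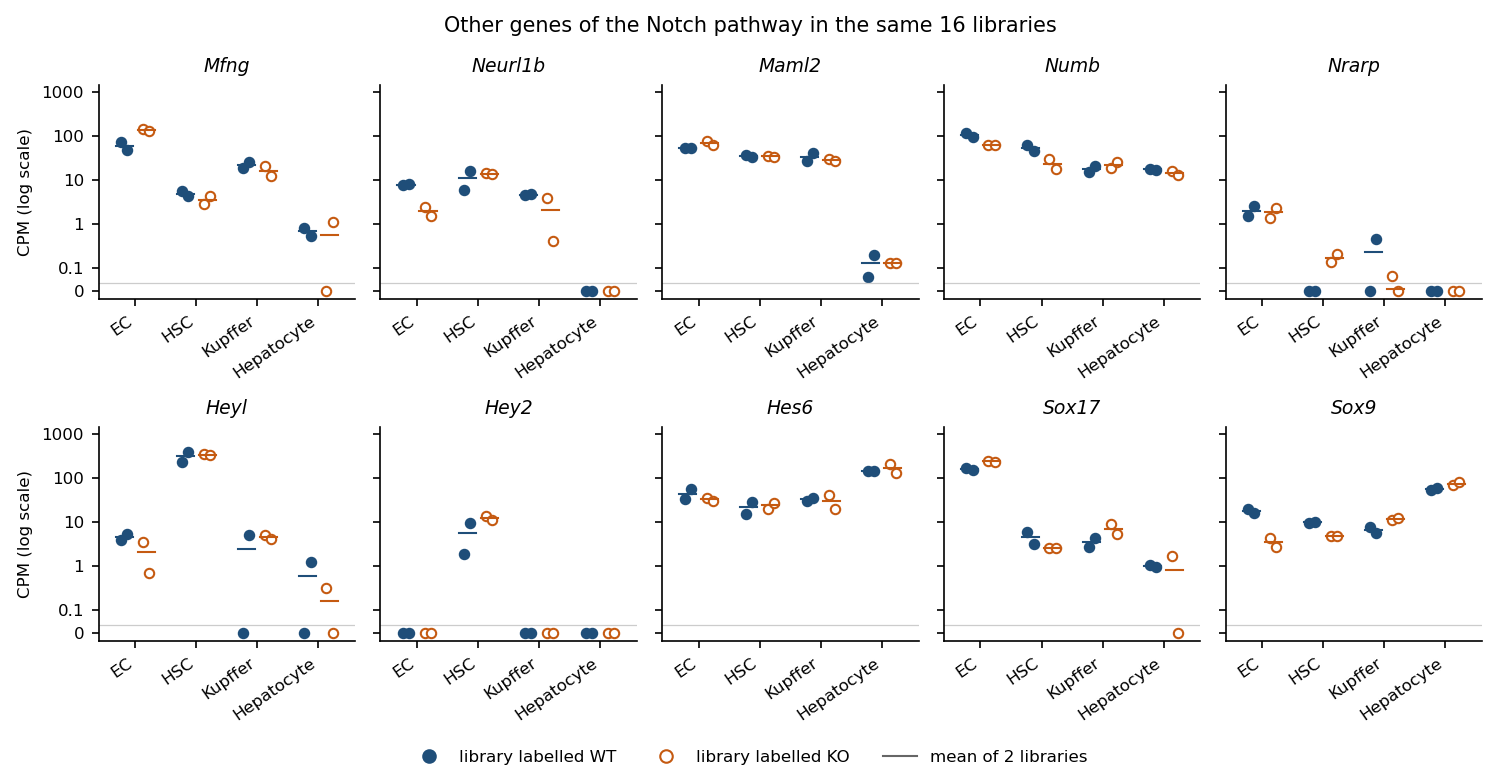
CPM on a log axis (libraries without a count at 0) of 10 other pathway genes in the same libraries, filled points for WT and open points for KO, with a line at the mean of 2. Heyl and Hey2 stand in HSCs (Heyl 233 to 393 CPM), Sox17 and Mfng in ECs and Hes6 and Sox9 in hepatocytes.

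Several targets outside the members stood in 1 cell type. Heyl, a Hey-family repressor, had 233 and 393 CPM in HSC WT and 350 and 343 in HSC KO, and no other library had more than 5.36. HSCs exceeded ECs 125-fold (log2 difference of ECs against HSCs -6.96, SE 0.99, adjusted p = 0.000279) and Kupffer cells 94.3-fold (6.56, SE 0.97, adjusted p = 0.000220). Hey2, its relative, had 1.86 and 9.53 CPM in HSC WT and 13.6 and 11.0 in HSC KO and no count in any of the 12 other libraries, at least 38.6-fold lower over a floor of 3 counts per library. HSCs thus held the highest mean of Hey1, Hey2 and Heyl alike. Nrarp, a feedback inhibitor induced by Notch, was instead an EC gene at 1.39 to 2.56 CPM, past the threshold against all 3 other cell types, with no count in hepatocytes (at least 9.6-fold lower). Among arterial and biliary genes downstream of Notch, Sox17 had 167 and 151 CPM in EC WT and 245 and 237 in EC KO and at most 8.90 elsewhere. Gja4, a gap junction gene of arterial ECs, overlapped between HSCs and ECs (80.0 to 314 CPM against 141 to 382, log2 difference 0.34, SE 0.54, adjusted p = 0.707). Hes6 stood highest in hepatocytes (132 to 212 CPM against at most 55.5 elsewhere), and so did Sox9, a transcription factor of biliary cells, with 53.7 to 80.3 CPM. Dtx4, of the turnover genes, was higher in HSCs, Kupffer cells and hepatocytes than in ECs, and Numb, an inhibitor of Notch, was higher in ECs than in all 3 other cell types, with 63.3 to 118 CPM.

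Between the labels, 0 of the 49 pathway genes tested in ECs, 0 of 48 in HSCs, 0 of 48 in Kupffer cells and 0 of 36 in hepatocytes passed with edgeR. Before adjustment, 6, 4, 3 and 2 genes had a p-value under 0.05, beside 15.0, 8.75, 5.09 and 7.11% of all genes. DESeq2 called 2 in ECs, Mfng and Sox9, among 996 of 15591 genes, and 0 in the other cell types. Medians of the log2 fold change were -0.14, 0.13, -0.06 and -0.08, beside -0.01, 0.02, -0.02 and -0.02 over all genes. Mfng was higher in both EC libraries labelled KO (values above), with a log2 fold change of 1.2 (SE 0.27, adjusted p = 0.0984, range over all alternatives 0.000462 to 0.617). Sox17 had 0.60 (SE 0.21, adjusted p = 0.255). In the other direction stood Numb with -0.76 (SE 0.22, adjusted p = 0.179), Neurl1b with -2.01 (SE 0.56, adjusted p = 0.166) and Dtx1, named after its values were seen, with -3.01 (SE 1.01, adjusted p = 0.244). Numb also had the lowest p-value of the list in HSCs, with 62.1 and 46.5 CPM in WT and 30.002 and 17.8 in KO (-1.22, SE 0.32, adjusted p = 0.394). Sox9 had 19.8 and 16.1 CPM in EC WT and 4.46 and 2.71 in EC KO (-2.34, SE 0.42, adjusted p = 0.0531, range over all alternatives 0.000148 to 0.212). Sox9 is on the list of hepatocyte-enriched genes: at its hepatocyte WT mean of 57.1 CPM, the hepatocyte shares correspond to 6.36 and 13.1 CPM in the WT and 1.91 and 1.30 in the KO libraries. The 6 markers of biliary epithelial cells, summed, stood at 250.4 and 253 CPM in EC WT and 129 and 206 in EC KO, and their part was not tested.

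As a description of like patterns, the genes most correlated with each member were read over the 16 libraries in log2 CPM among 15902 genes, where the points share their cell type and so mostly reflect it. Notch1 was closest to Trim56 (Pearson r = 0.980), Sptbn1 and Tns3, Dll4 to Tie1 (0.971), Akr1b8 and Arhgef5, Dll1 to Dpp4 (0.958), Pik3c2b and Plxna2, and Notch4 to A830082K12Rik (0.936), Ramp2 and Tinagl1. Jag1 was closest to Ndrg4 (0.973), Csdc2 and Plvap, and Notch3 to Rgs9 (0.938), Mustn1 and Antxr1. Notch2 lay closest to Camk1d (0.955), Chd3 and Rxra, Hes1 to Dut (0.921), Zfp574 and 9230114K14Rik, and Hey1 to Fam217b (0.922), Usp11 and Ccdc102a. For Jag2, near the limit of the depth, the highest value was 0.842 (Ssh3, then Gm43761 and Crtc2).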

How the data were processed

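RNA of 4 liver cell types from mice labelled WT or KO was sequenced in 16 libraries. The authors deposited raw read counts per gene from HTSeq. The submitters' processing notes name Trimmomatic 0.32, HISAT2 2.1.0, HTSeq 0.9.1, edgeR and GRCm38, and the labels describe the library preparation in 2 ways (Smart-seq2 and a stranded mRNA kit). The 5 summary lines of HTSeq were left out of totals. Totals of 12872706 to 15690506 counts set the counting error, and floors cover counting error only. Libraries of a group may be technical replicates, and p-values measure the spread between them. Counts were tested with edgeR 4.0.16 (filterByExpr, TMM, quasi-likelihood test) in R 4.3.3, within each cell type for KO against WT and over 16 libraries for cell types and interactions. Standard errors were computed as the log2 fold change over the square root of the F value. P-values were adjusted over all genes tested (Benjamini-Hochberg). DESeq2 1.42.0, other filters and scalings, fits of WT libraries alone and fits without each library were alternatives. Scripts were tested on simulated data. All members were named, and of 57 other pathway genes those past the threshold, those highest or lowest in ECs per sublist, the highest per kb in WT ECs, and Rbpj, Nrarp, Heyl, Hey2 and Hes5. Members and lists were chosen with earlier results of these data known. Of the gene IDs, 99.1% were found in GENCODE vM21, which gave exon lengths and positions.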

Additional observations from a re-analysis of the deposited data

Results flagged for a closer look

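Sox9, a transcription factor of biliary cells and a Notch target there, stood out because its difference between the labels differed between cell types by an interaction test. The log2 fold change of KO against WT in ECs lay 3.09 below that in Kupffer cells (-3.09, standard error 0.44, adjusted p = 0.0148 with edgeR, range over all alternatives 6.20e-08 to 0.0995), and the adjusted p was 0.0995 without EC KO library 46 and 0.0561 without EC WT library 38. It lay 2.85 below that in hepatocytes (-2.85, standard error 0.44, adjusted p = 0.0480, range over all alternatives 7.34e-07 to 0.278), and did not pass without EC library 6, 38 or 46 or any 1 of the 4 hepatocyte libraries 25, 29, 33 and 41 (adjusted p = 0.0909 to 0.278), nor with library totals alone (0.0739) or without the other hepatocyte-enriched genes (0.105). Sox9 was lower in both KO libraries of ECs and of HSCs than in their WT libraries and higher in both KO libraries of Kupffer cells and of hepatocytes. Both tests share the EC libraries. Hepatocyte-enriched genes had 11.1 and 22.9% of their hepatocyte level in the EC WT libraries and 3.34 and 2.28% in the EC KO libraries. They had 3.91 and 7.94% in HSC WT and 0.915 and 1.39% in HSC KO, and 4.73 and 8.57% in Kupffer WT and 9.72 and 11.4% in Kupffer KO libraries, and their part in the values of Sox9 was not tested.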

How the results depend on the processing

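No member passed between the labels in any cell type under any alternative run. Pathway genes past the threshold between the labels in ECs (0) became 1 with all 16 libraries in one fit, 2 with at least 10 counts in every library, 2 with DESeq2 and 2 without a filter on low counts, and 0 to 1 when leaving out a library (Mfng without WT 34, Sox9 without WT 38). Without a filter 1 passed in HSCs (Numb) and 1 in Kupffer cells (Dtx4). Requiring 10 counts in every library leaves fewer members to test, and the members past the threshold fell from 6 to 2 (ECs against HSCs), 7 to 3 (ECs against hepatocytes), 6 to 3 (HSCs against Kupffer cells), 7 to 3 (HSCs against hepatocytes) and 5 to 3 (Kupffer cells against hepatocytes). With WT libraries only, which has fewer samples, they were 3 for ECs against HSCs, 3 for HSCs against Kupffer cells and 3 for Kupffer cells against hepatocytes, and when leaving out a library the last count was 3 to 5, lowest without Kupffer KO 27. Interactions past the threshold became 1 with DESeq2 for ECs minus hepatocytes (Notch2) and 2 without a filter for HSCs minus Kupffer cells (Dll1 and Jag2), and the cause was not tested. No called value reversed. Among values that were not called, Dll1 between the labels in ECs became -0.0123 without hepatocyte-enriched genes, Jag1 in HSCs became -0.0069 with all 16 libraries in one fit, -0.00084 with DESeq2, -0.0043 without a filter and -0.0356 without hepatocyte-enriched genes, and with WT libraries only Dll1 in HSCs against Kupffer cells became 0.87 and Hey1 in ECs against Kupffer cells -0.32. Leaving out a library in turn turned the sign of log2 fold changes between the labels over these ranges: in ECs Dll1 -0.35 to 0.56, Jag1 -0.68 to 0.11, Jag2 -0.19 to 7.37 and Hes1 -0.26 to 0.15, in HSCs Notch4 -0.60 to 2.25, Dll4 -0.47 to 0.25, Jag1 -0.31 to 0.31 and Hey1 -0.14 to 0.96, in Kupffer cells Notch1 -0.16 to 1.11, Notch2 -0.16 to 0.29, Jag1 -1.09 to 0.26 and Hes1 -1.27 to 0.69, and in hepatocytes Dll1 -0.17 to 1.12, Dll4 -2.18 to 0.56 and Hes1 -0.30 to 0.56. Between cell types the same held for Dll1 in HSCs against Kupffer cells (-1.23 to 0.16), Hes1 in ECs against HSCs (-0.11 to 0.56) and Hey1 in ECs against Kupffer cells (-0.20 to 0.94). Of all single-gene values, 504 kept direction and side of the threshold without a library, while 27 reversed, 31 no longer passed and 14 newly passed. Under other alternatives 532 kept both, 7 reversed, 19 no longer passed and 24 newly passed. No paired analysis was possible because the groups share no replicate numbers in the labels.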
